A study of Mus musculus with 4 samples.

Results

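The genes described here encode granzyme A (Gzma), granzyme B (Gzmb), granzyme K (Gzmk), perforin (Prf1) and the granule membrane protein Nkg7. They were chosen by name and are 5 of the 31053 genes listed in each count matrix. They were followed in dissociated, unsorted tumours of mice carrying B16F10, a mouse melanoma line, by 5' single-cell RNA sequencing. There was 1 library in each of 4 groups. D+F+P mice received doxorubicin (an anthracycline), fasudil (an inhibitor of the kinase ROCK) and an antibody against PD-1. D+F mice received doxorubicin and fasudil, aPD-1 mice received the antibody, and the remaining library is the control. All groups share the B16F10 tumour. Doses, times, mouse strain and the number of mice in each library are not given in the labels. With 1 library in a group no difference between groups could be tested, so the intervals below cover counting error only and hold for these libraries.

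Cytotoxic lymphocytes kill by releasing granules at the contact with a target cell. Perforin forms pores in the target membrane, and granzymes, a family of serine proteases, enter through them and cleave proteins inside. Granzyme A is a tryptase that acts without classical caspase activation, granzyme B cuts after aspartate and activates caspases, and granzyme K is a tryptase related to granzyme A. Nkg7 is a membrane protein of the granule that is needed for efficient granule release. In mouse tumours these genes are best known from CD8 T cells and natural killer (NK) cells, and granzyme B also from activated regulatory T cells.

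On GRCm38, Gzma (ENSMUSG00000023132) lies on the minus strand at chr13:113093825-113100981, and Gzmk lies 70.6 kb away on the same strand at chr13:113171608-113225908. Gzmb is on the minus strand at chr14:56258838-56262260. Prf1 is on the plus strand at chr10:61297833-61304680, and Nkg7 is on the plus strand at chr7:43437073-43438249. The 250 bases before the RefSeq start of 4 genes are shown because these genes parted from one another across cell classes. Letters in capitals mark matches, on either strand, to TCACAC (a T-box motif), TGTGGT (a RUNX motif) or TGANTCA (an AP-1 motif). The windows are, in GRCm38.p6, chr13:113100982-113101231 for Gzma, chr13:113180966-113181215 for Gzmk, chr14:56262335-56262584 for Gzmb and chr10:61297586-61297835 for Prf1, each written in the direction of its gene. The gene spans above are from GENCODE, whose starts can differ from those of RefSeq. The Gzmk window lies inside the Gzmk span and not before it. The Prf1 and Nkg7 windows run into the start of theirs.
Gzma: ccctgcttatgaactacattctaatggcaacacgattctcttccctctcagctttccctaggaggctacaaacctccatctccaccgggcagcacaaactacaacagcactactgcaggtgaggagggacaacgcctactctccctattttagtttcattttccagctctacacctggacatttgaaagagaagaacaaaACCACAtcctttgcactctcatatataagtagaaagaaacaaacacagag
Gzmk: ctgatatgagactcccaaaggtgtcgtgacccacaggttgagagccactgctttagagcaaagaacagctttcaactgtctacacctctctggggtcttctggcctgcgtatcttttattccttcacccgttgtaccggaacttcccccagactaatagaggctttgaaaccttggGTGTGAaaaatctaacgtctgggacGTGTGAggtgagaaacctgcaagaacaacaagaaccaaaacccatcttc
Gzmb: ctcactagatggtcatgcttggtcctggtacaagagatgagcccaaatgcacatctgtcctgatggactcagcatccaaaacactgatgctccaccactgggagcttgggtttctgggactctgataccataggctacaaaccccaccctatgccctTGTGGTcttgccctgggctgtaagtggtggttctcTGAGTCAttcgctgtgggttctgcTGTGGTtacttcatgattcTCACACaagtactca
Prf1: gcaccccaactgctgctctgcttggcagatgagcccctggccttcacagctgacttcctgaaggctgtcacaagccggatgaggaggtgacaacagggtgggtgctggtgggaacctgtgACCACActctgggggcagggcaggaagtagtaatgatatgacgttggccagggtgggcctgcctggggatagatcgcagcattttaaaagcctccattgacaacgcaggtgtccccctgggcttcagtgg
The Gzma and Prf1 windows each held 1 RUNX match, Gzmk held 2 T-box matches, and Gzmb held 1 T-box, 2 RUNX and 1 AP-1 match. The Nkg7 window held 1 T-box and 1 RUNX match. The motif TGACGTCA (CRE) was in none of the 5. Of 32536 RefSeq promoter windows of the same length, 12.1% held the T-box letters, 14.0% the RUNX letters, 6.73% the AP-1 letters and 1.56% the CRE letters. A match is a string of letters and not a measured binding site.

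The libraries held 2525 to 2809 barcodes and 22691663 to 34444856 UMIs (unique molecular identifiers, the counted molecules). Filters kept 9424 of 10602 barcodes, with a median of 1866 UMIs per cell in D+F+P, 12882 in D+F, 9570 in aPD-1 and 16121 in control. Lymphocytes were the 3017 cells of clusters nearest to T or NK marker genes, of which 308 came from 2 clusters that no marker list named. Each was then sorted by transcripts into NK-like (57, 27, 31 and 24 cells in D+F+P, D+F, aPD-1 and control), regulatory T-like (30, 21, 32 and 12), CD4 T-like (43, 23, 23 and 2) and CD8 T-like (736, 246, 414 and 19). The other 1277 lymphocytes had too few defining transcripts, or those of more than 1 class, and stayed unassigned. NK-like cells had 9 or 10 of 11 NK markers in at least 10% of their cells in each library. Ncr1 and Klrb1c are among these 11 and also defined the class, so part of this is set by the sorting. By the same rule they had 6, 3, 4 and 4 of 10 T markers in D+F+P, D+F, aPD-1 and control. The filters left 50 barcode sequences in more than 1 library. Low-ribosomal cells (under 12% ribosomal UMIs) were 39.4%, 13.01%, 13.5% and 15.8% of CD8 T-like cells in D+F+P, D+F, aPD-1 and control.

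Gzma was mainly an NK-like transcript, Gzmk a CD8 T-like one, and Gzmb, Prf1 and Nkg7 were shared by both classes. Levels are the UMIs of a gene scaled to the UMIs of all genes, summed over the cells of a class in a library (CPM), with exact Poisson 95% intervals. In NK-like cells Gzma was at 7973 CPM (7636 to 8322) in D+F+P, 1862 (1553 to 2214) in D+F, 6827 (6352 to 7328) in aPD-1 and 4236 (3827 to 4677) in control. In CD8 T-like cells it was at 213 CPM (199.6 to 226) in D+F+P, 126 (108 to 146) in D+F and 74.8 (64.8 to 85.9) in aPD-1. Each of these NK-like values was above each of these CD8 T-like values. The 19 control CD8 T-like cells stood apart at 2419 CPM, and 254 of their 255 Gzma UMIs came from 8 cycling cells. A single cell held 30.2% of them. Being under the minimum of 20 cells, these 19 cells enter no comparison.

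Gzmb, in NK-like cells, was at 2914 CPM (2711 to 3128) in D+F+P, 1280 (1027 to 1577) in D+F, 2160 (1896 to 2450) in aPD-1 and 2096 (1812 to 2413) in control. Regulatory T-like cells had 788, 1112, 450 and 1366 CPM of Gzmb in D+F+P, D+F, aPD-1 and control, and 1 cell held 65.3% of these UMIs in D+F and 69.2% in control. CD4 T-like cells had 250.2 CPM (36 UMIs) in D+F+P, 110.1 (11 UMIs) in D+F and 12.9 (1 UMI) in aPD-1. In CD8 T-like cells Gzmb was at 2493 CPM (2448 to 2539) in D+F+P, 2242 (2165 to 2321) in D+F and 2496 (2437 to 2557) in aPD-1. The NK-like and CD8 T-like levels thus overlapped, while CD4 T-like cells lay below both. In the 19 control CD8 T-like cells Gzmb was at 4677 CPM, with 54.6% of the UMIs in 1 cell.

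Gzmk was close to its detection limit outside CD8 T-like cells. NK-like cells held 2, 0, 3 and 1 Gzmk UMIs in D+F+P, D+F, aPD-1 and control, where 0 in D+F allows up to 43.6 CPM at a floor of 3 UMIs. Regulatory T-like cells held 5 UMIs in D+F+P and 0 in the other libraries, which allows up to 34.0, 25.5 and 45.0 CPM in D+F, aPD-1 and control. CD4 T-like cells held 2 UMIs in D+F+P and 1 each in D+F and aPD-1. By contrast, CD8 T-like cells had 236 CPM (222 to 250.2) in D+F+P, 120.3 (103 to 140) in D+F and 166 (151 to 182) in aPD-1.

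Prf1, in NK-like cells, was at 939.6 CPM (826 to 1064) in D+F+P, 509 (355 to 708) in D+F, 571 (439.9 to 729) in aPD-1 and 486 (355 to 651) in control. It was low in regulatory T-like cells of D+F+P (24.1 CPM), D+F (11.3 CPM) and aPD-1 (42.5 CPM). The 12 control regulatory T-like cells gave 1186 CPM, of which 93.7% came from 1 cell. CD4 T-like cells held 2, 5 and 2 Prf1 UMIs in D+F+P, D+F and aPD-1. CD8 T-like cells had 459 CPM (440.2 to 479) in D+F+P, 465 (430 to 501) in D+F and 647 (617 to 678) in aPD-1, so perforin, like granzyme B, was shared by NK-like and CD8 T-like cells.

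Nkg7 was the member that every lymphocyte class carried. It was at 1887, 1484, 2526 and 1751 CPM in NK-like cells and at 794, 601, 782 and 1291 CPM in regulatory T-like cells of D+F+P, D+F, aPD-1 and control. CD4 T-like cells had 1043, 631 and 439 CPM and CD8 T-like cells 2346, 1988 and 2640 CPM in D+F+P, D+F and aPD-1. The 2 control CD4 T-like cells had 0 UMIs of all 5 members.

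Other cells gave a background that differed by cell type. Melanoma-like cells, which should lack all 5 genes and are much deeper, were at 0 to 6.85 CPM over the 5 genes and 4 libraries. In macrophage-like cells Gzmb was at 131 CPM in D+F+P, 58.0 in D+F, 48.5 in aPD-1 and 0 in control, and Gzma at 23.7, 6.97, 31.7 and 8.11 CPM. Nkg7 reached 60.3 CPM in macrophage-like cells of D+F+P, and 178 CPM (10 UMIs) and 268 CPM (26 UMIs of 1 cell) in dendritic-like cells of D+F+P and D+F. Gzmk stayed at or under 4.95 CPM and Prf1 at or under 10.4 CPM in both cell types. The Gzma of CD4 T-like cells, at 41.7, 0 and 38.7 CPM in D+F+P, D+F and aPD-1, and their Gzmb in aPD-1 were near or under these macrophage-like values and are not read as expression.

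**Figure D1:**
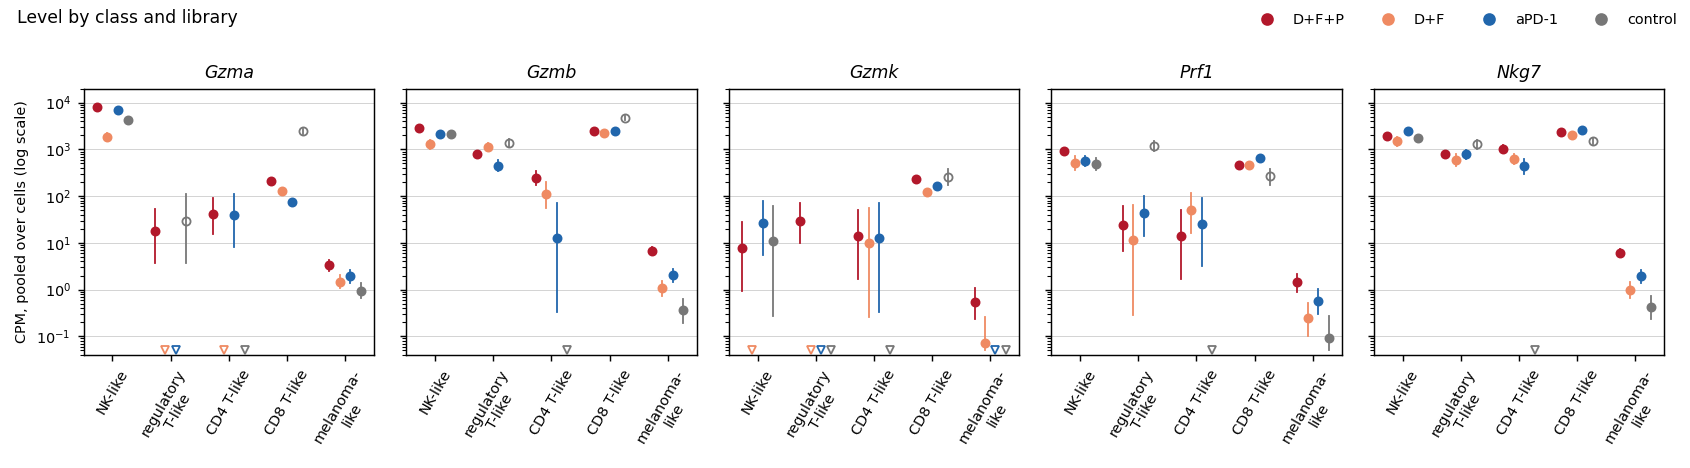
Level of each member (CPM on a log axis, pooled over the cells of a class) by class and library, with exact Poisson 95% intervals as vertical lines. Open circles mark classes under 20 cells, and open triangles at the bottom of the axis mark 0 UMIs. Gzma sits at 1862 to 7973 CPM in NK-like cells, while Gzmk in NK-like cells reaches at most 26.8 CPM.

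Shares of cells with at least 1 UMI were read after each cell was thinned to 1000 UMIs, because libraries and classes differ in depth, and shallower cells were left out. This kept 527 of 736 D+F+P, 224 of 246 D+F and 377 of 414 aPD-1 CD8 T-like cells. Gzma was found in 75.7% of D+F+P NK-like cells (exact 95% interval 58.8 to 88.2%, 37 cells), 76.0% of aPD-1 (25 cells) and 72.7% of control NK-like cells (22 cells). These shares overlapped fully. The 16 D+F NK-like cells with enough UMIs gave 50% (24.6 to 75.4%). In CD8 T-like cells Gzma was found in 11.8% (9.14 to 14.8%) in D+F+P, 7.14% (4.14 to 11.3%) in D+F and 5.04% (3.06 to 7.76%) in aPD-1. Unthinned, these CD8 T-like shares were 26.9%, 13.4% and 12.6%.

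Gzmb was found, at the same depth, in 44.4%, 45.0% and 28.6% of regulatory T-like cells of D+F+P, D+F and aPD-1, and Nkg7 in 48.1%, 35.0% and 46.4%. CD4 T-like cells carried Nkg7 in 53.1%, 30% and 42.9%, and Gzmb in 21.9%, 5.0% and 0%, the last being 0 of 21 cells with an upper limit of 16.1%. In CD8 T-like cells Gzmb was found in 66.8%, 57.1% and 61.8% and Nkg7 in 82.9%, 83.5% and 88.3%. Nkg7 was thus the most widely detected member there. Prf1 was found in 29.6%, 23.2% and 34.8% of CD8 T-like cells, and Gzmk in 18.8%, 12.5% and 18.0%. At most 1.51% of melanoma-like cells had a UMI of any member at that depth. Unthinned, 14.9% of D+F+P macrophage-like cells had a Gzmb UMI and 20.2% a Nkg7 UMI, at a median of 4183.5 UMIs. Counted per CD8 T-like cell, a mean of 2.1, 1.83 and 2.08 of the 5 members were detected in D+F+P, D+F and aPD-1.

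**Figure D2:**
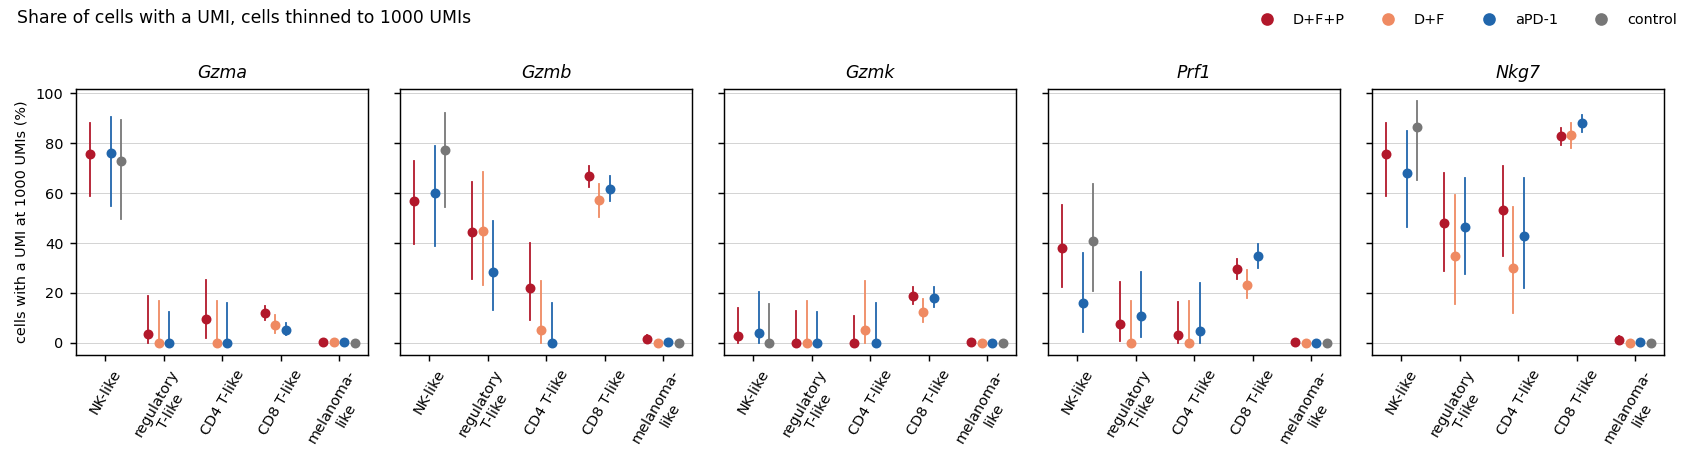
Share of cells with at least 1 UMI (percent, cells thinned to 1000 UMIs) by class and library, with exact binomial 95% intervals as vertical lines. Named lymphocyte classes under 20 cells after thinning are not drawn. Nkg7 is in 82.9 to 88.3% of CD8 T-like cells, and Gzma in 72.7 to 76.0% of the NK-like cells drawn.

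Within a library, NK-like cells set against CD8 T-like cells differed most in Gzma. Ratios of CPM are on the log2 scale with exact conditional binomial 95% intervals, over genes with at least 20 UMIs in the pair, and a gene was counted where it differed by at least 1.5-fold. Gzma was 5.23 (5.12 to 5.34) higher in NK-like cells of D+F+P, 3.89 (3.55 to 4.22) higher in D+F and 6.51 (6.29 to 6.74) higher in aPD-1. Gzmk went the other way, at -4.95 (-8.0 to -3.1, from 2 NK-like UMIs) in D+F+P and -2.63 (-4.91 to -1.07, from 3 UMIs) in aPD-1, with 0 NK-like UMIs in D+F. Prf1 was 1.03 (0.84 to 1.22) higher in NK-like cells of D+F+P, with 0.13 (-0.4 to 0.62) in D+F and -0.18 (-0.56 to 0.18) in aPD-1. Gzmb was at 0.23, -0.81 and -0.21 in D+F+P, D+F and aPD-1, and Nkg7 at -0.31, -0.42 and -0.06.

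Counted by size, D+F+P had 2 members higher (Gzma and Prf1) and 1 lower (Gzmk) in NK-like cells, beside 16.1% of 8851 genes higher and 29.0% lower. D+F had 1 higher (Gzma) and 2 lower (Gzmb and Gzmk), beside 21.5% and 34.5% of genes. aPD-1 had 1 higher (Gzma) and 1 lower (Gzmk), beside 23.4% and 32.1%. Gzmk reached the UMI minimum for a pair only through the CD8 T-like cells in each of these libraries. Its place among the lower members is thus partly set by that limit, and these counts are not support for its difference. Over the alternative ways of processing, the Gzma ratio stayed between 3.46 and 7.48 in these 3 libraries. NK-like cells were shallower than CD8 T-like cells, with median UMIs of 1929, 1627 and 2463 against 3481.5, 4537.5 and 5676.5 in D+F+P, D+F and aPD-1. Thinned to 1000 UMIs, the D+F+P ratios were 3.98 for Gzma, -3.22 for Gzmk and 0.24 for Prf1, and those of aPD-1 were 6.31, -2.46 and -0.99, while D+F had too few cells. The higher Prf1 in D+F+P thus fell short of 1.5-fold when thinned, and also with mean single-cell CPM (0.47) or with classes taken from the clusters (0.29). With those classes Gzmb in D+F was at -0.12, also short of 1.5-fold.

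CD4 T-like and regulatory T-like cells carried less Nkg7 than CD8 T-like cells of the same library in D+F+P, D+F and aPD-1. Regulatory T-like cells also carried less Gzmb. At least 1.5-fold lower levels were counted for 5 of 5 members in CD4 T-like cells of these 3 libraries, where 28.1%, 29.1% and 32.0% of all genes were as much lower and 25.0%, 19.7% and 28.0% as much higher. The same 5 of 5 were lower in regulatory T-like cells, where the shares of all genes were 34.7%, 31.3% and 28.5% lower and 16.9%, 23.4% and 25.0% higher. Gzma, Gzmk and Prf1 reached 20 UMIs in these pairs only through the CD8 T-like cells. So did Gzmb in the CD4 T-like comparisons of D+F and aPD-1. Their place in these counts is thus partly set by that limit, and the counts are not support for a difference. Gzma in aPD-1 CD4 T-like cells, at -0.95 (-3.24 to 0.62) from 3 UMIs, was the count whose interval included 0. Nkg7 was at -1.17, -1.66 and -2.59 in CD4 T-like cells of D+F+P, D+F and aPD-1, and in D+F and aPD-1 it was the only member with over 20 UMIs in those cells. Gzmb in regulatory T-like cells was at -1.66 (-1.92 to -1.41), -1.01 (-1.32 to -0.72) and -2.47 (-2.89 to -2.08), the middle value resting mostly on 1 cell. Prf1 in regulatory T-like cells was at -4.25, -5.36 and -3.93 from 4, 1 and 5 UMIs.

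Prf1 was detected in few of the Gzmb-positive regulatory T-like cells of D+F+P, D+F and aPD-1, with wide intervals. Of their cells with a Gzmb UMI, unthinned, 14.3% of 14 in D+F+P also had a Prf1 UMI (exact 95% interval 1.78 to 42.8%). The share was 0% of 10 in D+F (up to 30.85%) and 21.4% of 14 in aPD-1 (4.66 to 50.8%). In control it was 60% of 5 (14.7 to 94.7%). In NK-like cells the corresponding shares were 74.2%, 46.2%, 73.9% and 63.2% in D+F+P, D+F, aPD-1 and control. In CD8 T-like cells they were 63.2%, 60.8% and 77.3% in D+F+P, D+F and aPD-1. Cells differ in depth between these classes, so the shares describe detection.

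Over all CD8 T-like cells, Gzma and Gzmk stood higher in D+F+P than in D+F and aPD-1, while Gzmb was nearly equal. D+F+P against D+F gave 0.76 (0.53 to 0.99) for Gzma, 0.97 (0.74 to 1.21) for Gzmk, 0.15 (0.1 to 0.21) for Gzmb, -0.02 (-0.14 to 0.11) for Prf1 and 0.24 (0.18 to 0.3) for Nkg7. That is 2 of 5 members higher and 0 lower by 1.5-fold, beside 17.5% and 6.09% of 9141 genes. D+F+P against aPD-1 gave 1.51 (1.29 to 1.73) for Gzma, 0.51 (0.35 to 0.67) for Gzmk, -0.002 (-0.04 to 0.04) for Gzmb, -0.49 (-0.59 to -0.4) for Prf1 and -0.17 (-0.21 to -0.13) for Nkg7. Here 1 of 5 was higher and 0 lower, beside 13.5% and 4.82% of 9396 genes. Both comparisons share the D+F+P library. With classes taken from the clusters, Gzma against D+F was at 2.04, and thinned to 1000 UMIs it was at 0.52. Gzmk against D+F was at 0.42 with mean single-cell CPM, short of 1.5-fold. Without low-ribosomal cells the Gzma ratios were 0.83 against D+F and 1.47 against aPD-1, and those of Gzmk 1.06 and 0.54.

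Split by the cell cycle, D+F+P against D+F gave 2.29 (1.79 to 2.84) for Gzma in cycling CD8 T-like cells and -0.29 (-0.56 to -0.02) in non-cycling ones. In the cycling cells 2 of 5 members were higher and 0 lower, beside 14.3% and 7.28% of genes, and in the non-cycling cells 0 of 5 were higher or lower, beside 23.9% and 7.68%. The non-cycling value rested on few cells. In NK-named sub-cluster 3, where none of these D+F+P and D+F cells was cycling, 11 D+F+P cells held 171 of the 534 non-cycling Gzma UMIs and 3 D+F cells held 70 of 147. Outside the NK-named sub-clusters the non-cycling Gzma ratio against D+F was -0.01, without the top cell of each class it was 0.06, and with classes from the clusters 0.16. The cycling ratio stayed between 1.72 and 3.24 over the alternatives. It too had a narrow base, with 34 Gzma UMIs in D+F against 457 in D+F+P. Cycling cells of sub-cluster 1 held 238 of those 457. In D+F that sub-cluster had only 16 CD8 T-like cells, cycling or not, with 7 Gzma UMIs. Against aPD-1 the Gzma ratio was 1.47 (1.14 to 1.81) in cycling and 1.56 (1.25 to 1.87) in non-cycling cells. The non-cycling value was 0.98 outside the NK-named sub-clusters and -0.014 with classes taken from the clusters, where it was short of 1.5-fold and turned its sign. Gzmk against D+F was at 1.3 in cycling and 0.34 (-0.06 to 0.77) in non-cycling cells, and against aPD-1 at 0.63 and 0.26 (-0.01 to 0.53). Against aPD-1, 2 of 5 members were higher in cycling cells, beside 10.0% of genes higher and 6.87% lower, and 1 of 5 in non-cycling cells, beside 22.0% and 5.73%. The median of all genes was 0.11 and 0.12 above 0 in the non-cycling comparisons with D+F and aPD-1.

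These CD8 T-like cells were not of the same makeup in each library. Lymphocytes were clustered again without the 5 members and without granzymes C to G, and sub-clusters 0, 1, 5 and 8 are set side by side here. Sub-cluster 0, led by the interferon-response gene Ifit3 and the egress receptor S1pr1, held 10.9% of CD8 T-like cells in D+F+P, 16.7% in D+F and 4.35% in aPD-1. Sub-cluster 8, led by Gzmf, Ccl9 and Gzme, held 29.9%, 59.8% and 68.6%. Sub-cluster 4, with a median of 776.5 UMIs in D+F+P, held 142 CD8 T-like cells in D+F+P, 3 in D+F and 9 in aPD-1. Sub-cluster 5 was also shallow, with medians of 1510.5, 1353 and 1167 UMIs in D+F+P, D+F and aPD-1.

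Gzma and Prf1 divided these sub-clusters in opposite ways. Gzma was at 1081, 781 and 1263 CPM in sub-cluster 0 and at 41.4, 22.5 and 29.4 CPM in sub-cluster 8 (D+F+P, D+F and aPD-1). Prf1 was at 99.2, 29.7 and 51.2 CPM in sub-cluster 0 and at 649, 482 and 781 CPM in sub-cluster 8. The 18 aPD-1 cells of sub-cluster 0 were too few for a ratio, but they lay on the same side as those of the other libraries. Gzmk was at 424, 287 and 376 CPM in sub-cluster 0 and 132, 85.4 and 133 CPM in sub-cluster 8. It was about as high in sub-cluster 1, at 406, 331 (16 cells) and 352 CPM, where Gzma was at 198, 58.0 and 159 CPM. Granzymes A and K were thus both higher in sub-clusters 0 and 1 than in sub-cluster 8. They differed in steepness, as only Gzma was far lower in sub-cluster 1 than in sub-cluster 0. Sub-cluster 1 held 52.0% of the Gzmk UMIs of D+F+P CD8 T-like cells, and sub-cluster 0 held 12.5%. Gzmb was lower in sub-cluster 0, at 1565, 1107 and 1451 CPM, than in sub-cluster 8, at 3083, 2396 and 2913 CPM. Nkg7 was similar, at 2364, 1878 and 2287 CPM in sub-cluster 0 and 2650, 2075 and 2904 CPM in sub-cluster 8.

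On the log2 scale, sub-cluster 0 over sub-cluster 8 in D+F+P was 4.71 (4.39 to 5.04) for Gzma, 1.68 (1.38 to 1.98) for Gzmk, -0.98 (-1.11 to -0.85) for Gzmb, -2.71 (-3.26 to -2.21) for Prf1 and -0.17 (-0.28 to -0.06) for Nkg7. In D+F it was 5.12, 1.75, -1.11, -4.02 and -0.14 in the same order of genes. The D+F value of Prf1 (interval -6.3 to -2.47) came from 3 UMIs in sub-cluster 0 against 536 in sub-cluster 8. In both libraries 2 of 5 members were at least 1.5-fold higher and 2 of 5 as much lower. In D+F, Prf1 reached the UMI minimum for a pair only through sub-cluster 8. Its place in the D+F count is thus partly set by that limit. All genes stood at 25.5% higher and 24.9% lower in D+F+P, and at 23.8% and 34.4% in D+F. Sub-cluster 0 held 35.2%, 43.6% and 37.0% of all Gzma UMIs of CD8 T-like cells in D+F+P, D+F and aPD-1. The NK markers Ncr1 and Klrb1c were at 0 to 2 CPM in the 4 sub-clusters drawn.

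Within sub-cluster 8, D+F+P against D+F gave 0.88 (0.24 to 1.57) for Gzma, 0.63 (0.3 to 0.97) for Gzmk, 0.36 for Gzmb, 0.43 for Prf1 and 0.35 for Nkg7. By 1.5-fold, 2 of 5 were higher and 0 lower, beside 12.9% and 8.53% of genes. D+F+P against aPD-1 within sub-cluster 8 gave 0.49 (0.02 to 0.97) for Gzma, -0.01 (-0.25 to 0.23) for Gzmk and -0.27 (-0.37 to -0.17) for Prf1, with 0 of 5 past 1.5-fold beside 9.41% higher and 7.87% lower. The Gzma ratio against aPD-1 of 1.51 over all CD8 T-like cells was thus 0.49 within this sub-cluster. Within sub-cluster 1, D+F+P against aPD-1 gave 0.94 (0.79 to 1.1) for Gzmb, 0.32 for Gzma, 0.21 for Gzmk, 0.54 for Prf1 and 0.04 for Nkg7, with 1 of 5 higher and 0 lower beside 14.3% and 12.2%. Gzmb was thus higher there in D+F+P, although nearly equal over all CD8 T-like cells. Within sub-cluster 0, D+F+P against D+F gave 0.47 for Gzma, 0.57 for Gzmk, 0.5 for Gzmb, 0.33 for Nkg7 and 1.74 (0.07 to 4.09, from 3 D+F UMIs) for Prf1, with 1 of 5 higher and 0 lower beside 21.4% and 12.9%. A further 11 D+F+P and 3 D+F CD8 T-like cells lay in the NK-named sub-cluster 3. They held 17.3% and 38.7% of the Gzma UMIs of their class at 4683 and 3169 CPM. Without CD8 T-like cells of the NK-named sub-clusters 3 and 6, the Gzma ratio was 1.15 against D+F and 1.24 against aPD-1.

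**Figure D3:**
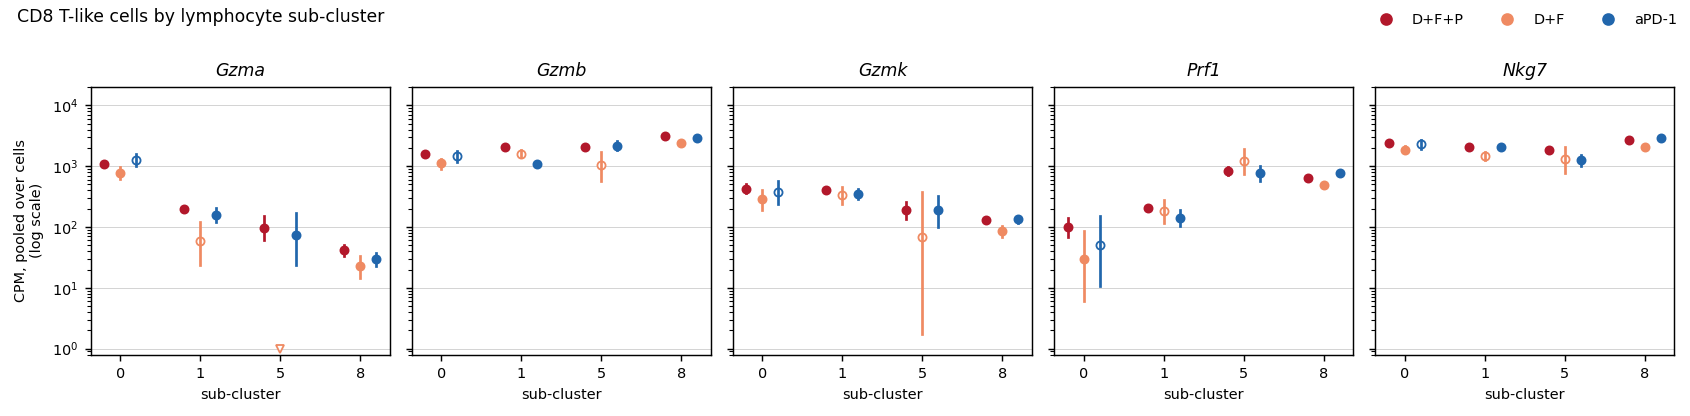
Level of each member (CPM on a log axis) in CD8 T-like cells of sub-clusters 0, 1, 5 and 8 in D+F+P, D+F and aPD-1, with exact Poisson 95% intervals as vertical lines. Open circles mark under 20 cells and the open triangle 0 UMIs. From sub-cluster 0 to 8, Gzma in D+F+P is at 1081, 199, 97.5 and 41.4 CPM and Prf1 at 99.2, 206, 831 and 649 CPM.

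Cycling CD8 T-like cells, defined by at least 2 UMIs of 36 cell-cycle genes making up at least 0.2% of the cell's UMIs, numbered 242 in D+F+P, 114 in D+F and 188 in aPD-1. Summed over cells, Prf1, Nkg7 and Gzma had lower levels in cycling than in non-cycling cells of the 3 libraries, by under 1.5-fold for Prf1 and Nkg7. Prf1 was at 399, 407 and 569 CPM in cycling cells of D+F+P, D+F and aPD-1, against 549, 603 and 756 CPM in non-cycling cells. Nkg7 was at 2090, 1783 and 2416 CPM in cycling cells, against 2723, 2479 and 2955 CPM in non-cycling cells. Their log2 ratios lay between -0.57 and -0.29. Gzma was at 164, 33.5 and 59.4 CPM in cycling cells, against 284, 348 and 96.6 CPM in non-cycling cells.

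Gzmb was close to equal, at 2665, 2259 and 2415 CPM in cycling cells and 2238, 2202 and 2611 CPM in non-cycling cells of D+F+P, D+F and aPD-1. Gzmk differed by library, at 273, 111.3 and 176 CPM in cycling cells and 180.3, 142 and 151 CPM in non-cycling cells. By 1.5-fold, D+F+P had 1 member higher (Gzmk, 0.6) and 1 lower (Gzma, -0.79), beside 13.2% and 24.8% of 8735 genes, whose median was itself at -0.15. D+F had 0 higher and 1 lower (Gzma, -3.38), beside 20.2% and 18.2% of 5779 genes. aPD-1 had 0 higher and 1 lower (Gzma, -0.7), beside 14.6% and 12.7% of 7375 genes.

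The Gzma difference depended on which cells were taken. Within sub-cluster 8, Gzma was at 0.43 (-0.18 to 1.05) in D+F+P, -3.02 (-4.52 to -1.69, 7 against 18 UMIs) in D+F and -0.89 (-1.69 to -0.11) in aPD-1. Within sub-cluster 1 of D+F+P it was at 0.21 (-0.27 to 0.73). With classes taken from the clusters it was at 0.66 in D+F+P, the opposite sign. Prf1 and Nkg7 kept their sign within sub-cluster 8, at -0.35, -0.47 and -0.26 for Prf1 and -0.52, -0.61 and -0.22 for Nkg7. Of the lymphocytes, 987 lay near the cycling limit.

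The Prf1 difference in D+F did not hold throughout. Prf1 there was at 0.52 when thinned, 0.47 with mean single-cell CPM, -0.07 outside the NK-named sub-clusters and -0.16 without the top cell, and 1 cell of sub-cluster 3 held 84 of the 255 non-cycling UMIs. Nor did Prf1 fall evenly with the share of cell-cycle UMIs. In aPD-1 it was at 951 CPM in cells at 0.2 to 0.4% and 449.5 CPM at 0.4% and over, against 606 CPM in cells with none, 877 CPM at up to 0.1% and 569 CPM at 0.1 to 0.2%. In D+F the cells at up to 0.1% were at 1014 CPM, and those with none and at 0.1 to 0.2% at 235 and 232 CPM, under the 469 and 380 CPM of the 2 highest ranges. Nkg7 kept its sign in the 3 libraries under all 14 alternatives, but in D+F+P the difference came close to none. Its ratio ranged from -0.57 to -0.004 in D+F+P, -0.61 to -0.2 in D+F and -0.44 to -0.27 in aPD-1.

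**Figure D4:**
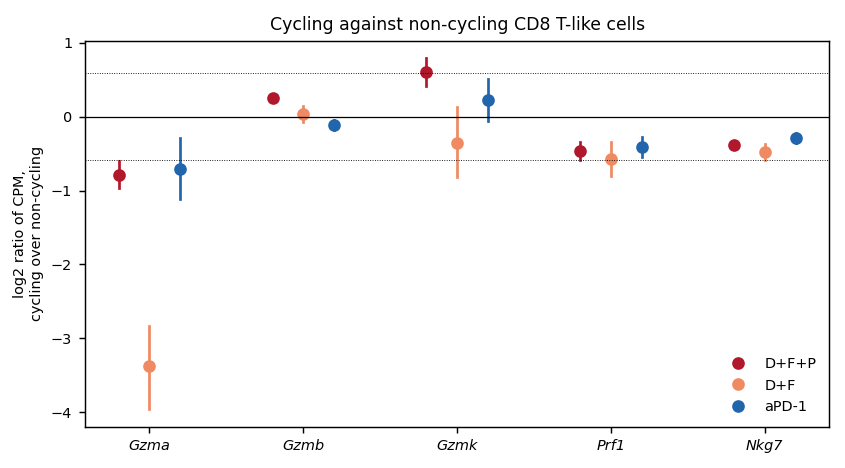
Log2 ratio of CPM, cycling over non-cycling CD8 T-like cells, for each member in D+F+P, D+F and aPD-1, with exact 95% intervals as vertical lines and dotted lines at 1.5-fold. Prf1 and Nkg7 lie below 0 in the 3 libraries (-0.57 to -0.29), and Gzma ranges from -3.38 to -0.7.

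NK-like cells were few, 24 to 57 in a library, and their values were read with that limit. D+F+P against D+F gave 2.1 (1.84 to 2.37) for Gzma, 1.19 (0.87 to 1.52) for Gzmb, 0.88 (0.37 to 1.44) for Prf1 and 0.35 (0.04 to 0.67) for Nkg7, or 3 of 4 measured members higher, beside 22.5% of 2132 genes higher and 15.5% lower. D+F+P against aPD-1 gave 0.22, 0.43, 0.72 and -0.42 for Gzma, Gzmb, Prf1 and Nkg7, with 1 of 4 higher and 0 lower beside 16.6% and 15.1%. D+F+P against control gave 0.91 (0.76 to 1.07), 0.47, 0.95 (0.49 to 1.44) and 0.11, with 2 of 4 higher and 0 lower beside 18.7% and 22.6%. D+F against control gave -1.19, -0.71, 0.07 and -0.24, with 0 of 4 higher and 2 lower beside 10.1% and 23.5%. aPD-1 against control gave 0.69, 0.04, 0.23 and 0.53, with 1 of 4 higher and 0 lower beside 17.7% and 22.6%. Gzmk had under 20 UMIs in each of these pairs and was not counted.

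In the smaller classes, Gzmb and Nkg7 alone had 20 UMIs in each pair of libraries. In CD4 T-like cells D+F+P against D+F gave 1.19 (0.18 to 2.31) for Gzmb and 0.73 (0.29 to 1.17) for Nkg7, 2 of 2 higher beside 19.5% of genes higher and 19.1% lower. Against aPD-1 it gave 1.25 (0.7 to 1.83) for Nkg7 and 4.28 (1.71 to 9.62) for Gzmb, with only 1 UMI in aPD-1, 2 of 2 higher beside 16.1% and 16.5%. The macrophage-like background was also highest in D+F+P. Gzmb was at 131, 58.0 and 48.5 CPM and Nkg7 at 60.3, 6.97 and 41.6 CPM there in D+F+P, D+F and aPD-1. CD4 T-like Gzmb was at 250.2, 110.1 and 12.9 CPM, so its ratios are not read as a change in these cells. The share of background in them was not tested. In regulatory T-like cells Gzmb was at -0.5 (-0.89 to -0.1) against D+F, where 0 of 2 differed by 1.5-fold beside 13.9% and 17.8%. Against aPD-1 it was at 0.81 (0.34 to 1.3), with 1 of 2 higher beside 11.1% and 18.5%.

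Several of the NK-like ratios rested on few deep cells. In D+F+P, 12 cycling NK-like cells held 1302 of 2096 Gzma UMIs. In the non-cycling cells Gzma was at 6312 CPM (45 cells) in D+F+P, 2212 (23 cells) in D+F, 6311 (25 cells) in aPD-1 and 6218 (18 cells) in control. The control cells are too few for a comparison, and their value lay beside those of D+F+P and aPD-1. When each cell counted equally, D+F+P against control was -0.63 for Gzma and -0.48 for Prf1, and after thinning it was -0.18 and -0.68. With classes taken from the clusters, D+F+P against D+F was -0.1 for Gzmb and -0.43 for Prf1. With those classes D+F+P against aPD-1 was -0.05 for Gzma, -0.43 for Gzmb and 0.01 for Prf1, and D+F against control was 0.26 for Gzmb. When each cell counted equally, D+F+P against aPD-1 was -0.88 for Gzma and 0.31 for Prf1, and aPD-1 against control was 0.26 for Gzma. Gzma in D+F stayed lower than in D+F+P and control in the 7 alternatives that gave a value, but D+F+P against D+F was 0.55 when each cell counted equally, and D+F against control was -0.23 with classes from the clusters. Thinning, stricter filters and leaving out low-ribosomal cells gave no value for these pairs. The summed melanoma markers were at 213, 1033, 491 and 2431 CPM in NK-like cells of D+F+P, D+F, aPD-1 and control. Without lymphocytes over 1% melanoma-marker UMIs, the Gzma ratios were 2.1 for D+F+P against D+F, 0.22 against aPD-1 and 0.91 against control, equal to those of all cells.

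Across single CD8 T-like cells thinned to 1000 UMIs, few pairs of members parted from the joint share that their separate shares predict. The ratio of cells with both genes to the product of the single shares was between 0.83 and 1.12 for Gzmb with Gzmk and for Nkg7 with any member, in each of D+F+P, D+F and aPD-1. Nkg7 was found in most of these cells, so its ratios could not rise far above 1. Those values are thus not read as independence. Gzma with Gzmk was at 1.63 (0.99 to 2.52, 19 cells) in D+F+P, 1.5 (0.31 to 4.33, 3 cells) in D+F and 2.63 (1.21 to 4.93, 9 cells) in aPD-1. At 500 UMIs the aPD-1 value was 0.84, and without the unnamed clusters those of D+F+P and D+F were 0.99 and 0. Gzma and Prf1 were found together less often in D+F+P, at 0.49 (0.23 to 0.92, 9 cells), with 1.08 (0.29 to 2.72, 4 cells) in D+F and 0.45 (0.09 to 1.32, 3 cells) in aPD-1. Gzmb with Prf1 was at 1.13 (0.96 to 1.32) in D+F+P, 1.41 (1.04 to 1.85, 42 cells) in D+F and 1.14 (0.94 to 1.35) in aPD-1. In each library 1 of 10 pairs had an interval that left out 1, a different pair each time, and 0 did with classes from the clusters or without the unnamed clusters. Unthinned, 6 of 10 pairs in D+F+P and 1 of 10 in each of D+F and aPD-1 had an interval that left out 1.

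**Figure D5:**
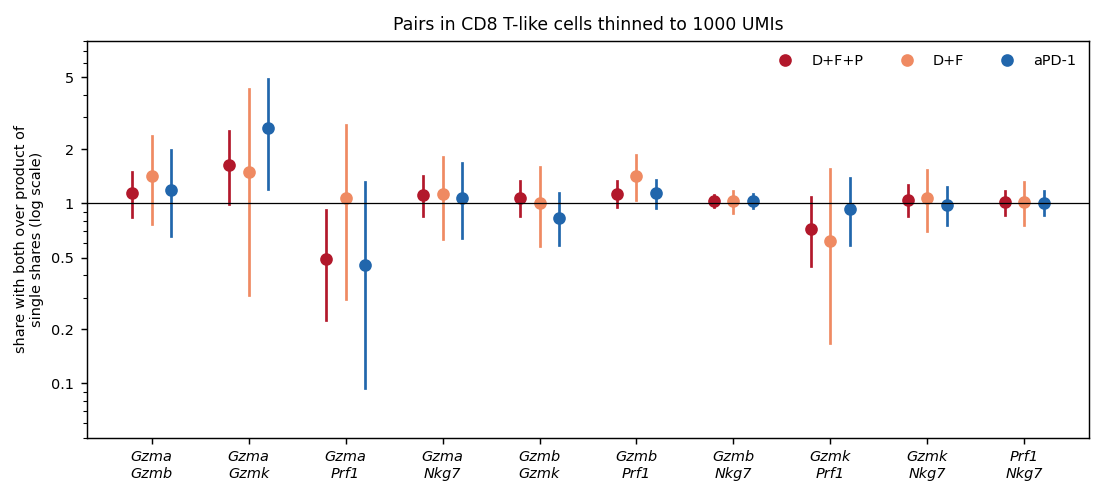
Share of CD8 T-like cells with both genes of a pair over the product of the single shares (log axis), in cells thinned to 1000 UMIs of D+F+P, D+F and aPD-1, with exact 95% intervals as vertical lines and a line at 1. Gzma with Gzmk lies at 1.5 to 2.63, and Gzma with Prf1 at 0.45 to 1.08.

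The companion genes of the granule pathway were taken from lists of named genes. Of the 11 measured granule proteins and processing genes, D+F+P CD8 T-like cells had 1 higher and 5 lower than D+F (median log2 ratio -0.24, all genes 0.07), and 1 higher and 5 lower than aPD-1 (median -0.36, all genes 0.06). The shares of all genes, for these and the next lists, were 17.5% higher and 6.09% lower against D+F, and 13.5% and 4.82% against aPD-1. The 5 lower genes were granzymes C to G, which are neighbours of Gzmb in its gene cluster. Gzmc was at 191 CPM in D+F+P, 1275 in D+F and 756 in aPD-1, and Gzmf at 174, 748 and 1084 CPM. Their differences ran opposite to those of Gzma and Gzmk. The higher gene was Lamp1, a lysosomal membrane protein exposed on granule release, at 50.4 CPM in D+F+P, 8.35 in D+F and 8.6 in aPD-1.

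Of the 12 granule transport and exocytosis genes, such as Rab27a, Unc13d and Stx11, 0 differed by 1.5-fold between D+F+P and D+F cells, and 1 (Vamp7, 1.11) was higher in D+F+P than in aPD-1 cells. The inhibitors, which protect the killer cell from its own proteases, had 1 higher and 1 lower of 7 in both comparisons. Serpinb9b was the lower one, at 17.4 CPM in D+F+P, 38.9 in D+F and 41.9 in aPD-1. Of 9 death ligands and cytokines, 3 were higher and 2 lower against D+F, and 0 of 9 differed by 1.5-fold against aPD-1. Ccl5, a chemokine stored by cytotoxic cells, was at 5970 CPM in D+F+P, 3615 in D+F and 5801 in aPD-1. Of 12 transcription factors of cytotoxic cells, 1 was higher and 1 lower against D+F, Eomes (0.63) and Bhlhe40 (-0.63), and 1 was lower against aPD-1, Tox (-0.76).

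In cycling against non-cycling CD8 T-like cells, 5 of 8 measured death ligands and cytokines in D+F+P, 4 in D+F and 4 in aPD-1 were at least 1.5-fold lower and 0 higher, beside 24.8%, 18.2% and 12.7% of all genes lower. Their median log2 ratios were -0.67, -0.64 and -0.6, with -0.15, 0.02 and -0.006 for all genes. Ccl5 was at 3058, 1784 and 3778 CPM in cycling cells, against 10270, 8012 and 8662 CPM in non-cycling cells of D+F+P, D+F and aPD-1. In NK-like against CD8 T-like cells, 7 of 11 granule genes were higher and 0 lower in D+F+P, 2 of 10 higher and 5 lower in D+F, and 6 of 11 higher and 2 lower in aPD-1. All genes stood at 16.1% higher and 29.0% lower, 21.5% and 34.5%, and 23.4% and 32.1%. Gzmc was at 10210, 8088 and 10240 CPM in NK-like cells, against 191, 1275 and 756 CPM in CD8 T-like cells. Eomes, a T-box factor of NK cells, was at 110.3, 116 and 205 CPM in NK-like cells, against 32.2, 20.9 and 22.1 CPM in CD8 T-like cells.

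The genes whose levels ran most like each member were found over 13 sums of class and library of at least 20 cells, which share libraries and differ in depth, by Pearson correlation of log2(CPM + 10) among 6685 genes. Gzma was most like Eomes (0.969), Fcer1g (0.963), Atp1b1 (0.959), Nrarp (0.952) and Klra7 (0.946). Prf1 was most like Klre1 (0.948), Setbp1 (0.947), Klrk1 (0.944), Lrrk1 (0.944) and Prkd3 (0.924), and Nkg7 most like Klrd1 (0.957), Abcf3 (0.932), Sh2d2a (0.927), Ccl5 (0.918) and Lrrk1 (0.907). Gzmk was most like Slc16a11 (0.913), Cd8b1 (0.908), Cd8a (0.906), Tcrg-C2 (0.894) and Adgrg1 (0.882). Gzmb was most like Tnrc18 (0.923), Pfkp (0.904), Eny2 (0.903), Gpaa1 (0.892) and Snrpb2 (0.891). Among the members, Prf1 with Nkg7 was at 0.892 and Gzmb with Nkg7 at 0.831, while the neighbours Gzma and Gzmk were at 0.0419. Cd8a and Cd8b1 defined the CD8 T-like gate, so their place beside Gzmk is partly set by it.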

How the data were processed

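Cells from digested tumours went through 10x Chromium 5' library preparation (V(D)J kit) and HiSeq X sequencing, per the labels' protocols. The deposited matrices list UMI counts as whole numbers for each gene in each barcode, made by the authors with Cell Ranger 3.1.0 on GRCm38 (mm10), per the submitters' processing notes, with no normalization. Other upstream steps are not given in the sources used here.

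Barcodes with fewer than 300 genes or 500 UMIs, or with over 20% mitochondrial UMIs, were dropped. Scrublet, as shipped with scanpy 1.11.5, marked 37 (0.391%), too few to count as working (0.5%), so doublets remain. Leiden clusters (2000 variable genes, 30 components, 15 neighbours, resolution 1.0) left out the 5 members and granzymes C to G. Within T or NK clusters cells were gated by at least 1 UMI. CD8 T-like cells had Cd8a or Cd8b1 and no Cd4 or Foxp3, CD4 T-like cells Cd4 alone, and regulatory T-like cells Foxp3 and no Cd8. NK-like cells had Ncr1 or Klrb1c and none of Cd3d, Cd3e, Cd8a, Cd8b1, Cd4 and Foxp3. Classes were compared where both sides held at least 20 cells. Exact 95% intervals used scipy 1.17.1 in Python 3.11.15 and were tested on simulated counts. Total UMIs per library limit precision as given with the cell numbers.

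Genes named are the members, up to 4 genes at each end of a list in a comparison, the 5 most like each member, and the gating markers. Sub-cluster leading genes, and Ncr1, Klrb1c and Tyrobp within sub-clusters, were named after their values were seen. Members, lists and gates were chosen with earlier results of these data known. Alternatives covered classes from clusters, low-ribosomal barcodes, stricter filters and gates, thinning, mean single-cell CPM and the cycling limit.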

Additional observations from a re-analysis of the deposited data

Results flagged for a closer look

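Effects with opposite signs in parallel groups were flagged, and in no case was the difference between them tested, since each group is 1 library. Gzmb in cycling against non-cycling CD8 T-like cells was at 0.25 on the log2 scale in D+F+P and -0.11 in aPD-1. Gzmb in NK-like against CD8 T-like cells was at 0.23 in D+F+P, -0.81 in D+F and -0.21 in aPD-1. Gzmb in D+F+P against D+F was at 0.15 in CD8 T-like, 1.19 in CD4 T-like and 1.19 in NK-like cells, and at -0.5 in regulatory T-like cells, where 65.3% of the D+F UMIs came from 1 cell. Prf1 in D+F+P against aPD-1 was at 0.72 in NK-like cells (0.01 with classes from clusters) and -0.49 in CD8 T-like cells. Nkg7 in D+F+P against aPD-1 was at 1.25 in CD4 T-like cells, -0.17 in CD8 T-like cells and -0.42 in NK-like cells.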

How the results depend on the processing

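No paired analysis was possible because each group is 1 library with no replicate. Of the log2 ratios recomputed, 1020 stayed within the counting interval, 253 moved further and 10 called ratios changed sign. In CD8 T-like cells, Gzma in D+F+P stayed higher than in D+F (0.52 to 2.04 over 12 alternatives) and aPD-1 (1.16 to 1.8).

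Members at least 1.5-fold apart in CD8 T-like cells of D+F+P and D+F were 2, and 1 when thinned or with mean single-cell CPM. In cycling against non-cycling cells of D+F+P they were 2. They were 1 without low-ribosomal barcodes, under strict filters, with mean single-cell CPM and at cycling limits of 0.1% or 0.4%. They were 0 with a gate of 2 UMIs or outside NK-named sub-clusters, and 3 with classes from clusters, without the unnamed clusters or thinned. In D+F they were 1, but 3 with classes from clusters and 2 without low-ribosomal barcodes, under strict filters, without the unnamed clusters, with a gate of 2 UMIs or at the 0.1% limit. In aPD-1 they were 1, and 0 with mean single-cell CPM or at the 0.1% limit. Pairs whose interval left out 1 were 1 in each library. They were 0 in all 3 with classes from clusters or without the unnamed clusters. In D+F+P they were 2 at 500 UMIs, outside NK-named sub-clusters, without low-ribosomal barcodes or under strict filters, and 6 unthinned, and in aPD-1 they were 0 at 500 UMIs.

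With classes from clusters, NK-like D+F+P against D+F gave -0.1 for Gzmb and -0.43 for Prf1, NK-like D+F against control 0.26 for Gzmb, non-cycling CD8 T-like D+F+P against aPD-1 -0.014 for Gzma, and cycling D+F+P cells 0.66 for Gzma (0.037 at the 0.4% limit). NK-like D+F+P against control gave -0.18 for Gzma and -0.68 for Prf1 when thinned, and -0.63 and -0.48 with mean single-cell CPM. In aPD-1, Gzma with Gzmk was at 0.84 at 500 UMIs. The cause was not tested. NK-like against CD8 T-like cells gave no value in D+F without low-ribosomal barcodes, under strict filters or thinned, or in any library with a gate of 2 UMIs. Cells too few, uneven depth and remaining doublets limit each NK-like and CD4 T-like value. The alternatives outside NK-named sub-clusters, without the top cell, without the unnamed clusters and unthinned pairs were chosen after seeing the data.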
